A study of Drosophila melanogaster with 8 samples.

Results

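The comparison described here set eye-antennal imaginal discs that carried late tumours against discs of the same kind that carried active Ras alone, in the fruit fly Drosophila melanogaster. It used 2 of the 8 RNA sequencing libraries of the series, chosen by their labels, with 1 library on each side. In both, FLP recombinase under the eyeless driver (eyflp, on a y,w background) made mosaic clones in the disc. Within the clones the act>y+>Gal4 driver switched on UAS-GFP and UAS-Ras[V12], an always active form of the small GTPase Ras, once the tub-GAL80 chromosome (FRT82 e) was lost. In the active Ras discs, called RasV12 here, the homologous chromosome was a plain FRT82 chromosome, and the larvae were 5 days old after egg laying. In the late tumour that chromosome was FRT82 e scrib[2], so that the clones also lost scribble (scrib), and the larvae were 11 days old. Both sets were wandering larvae of the last instar raised at 25 °C, and discs of 50 to 60 larvae were pooled for each library. Each library therefore mixed clone cells with unmarked neighbours. Genotype and an age gap of 6 days cannot be told apart in this comparison, and fewer cells of a type cannot be told apart from less RNA per cell.

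The other 6 libraries served as a backdrop for levels. They were control clones (5 days), clones with a dominant negative form of the kinase Jun N-terminal kinase, written BskDN (11 days), scrib clones with BskDN (6 days), RasV12 scrib clones with BskDN (6 days), early RasV12 scrib tumours (7 days) and scrib mutant wing discs (6 days).

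Ras signals through the MAP kinase cascade and drives growth and survival of disc cells. Scribble is a scaffold protein that keeps the apical and basal sides of epithelial cells apart. Clones that have active Ras overgrow but stay epithelial, whereas clones that combine it with loss of scrib become invasive tumours in which Jun N-terminal kinase (JNK) is active, and larvae with such tumours stay in the larval stage for days beyond the normal time. The question of the comparison is what separates that end state from active Ras by itself.

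Assigned counts were 19996678 in RasV12 and 19835809 in the late tumour, against 17152279 to 21027972 over the 8 libraries. A single count was worth 0.0497 and 0.0499 CPM, that is, counts scaled to a library of standard size in RasV12 and the late tumour, and 3 counts, taken as the floor, 0.149 and 0.150 CPM. Reads that aligned to several places were tallied apart from genes and made up 27.8% of the late tumour library and 18.6% of RasV12, against 14.8 to 27.8% over the 8 libraries. Since each group had 1 library, no test was possible and no p-value is given. Intervals are 95% counting intervals that compare the 2 libraries and not the conditions. With 15348 genes in the table, 10029 reached 1 CPM in at least 1 library and were considered. A gene was called when it stood at least 4-fold apart, on a log2 CPM scale with a prior count of 2, and reached 5 CPM in the higher library. Members of gene lists were also counted at 2-fold.

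By this rule 517 genes were called higher in the late tumour, 5.16% of those considered, and 187 lower, 1.86%. At 2-fold the shares were 16.6% higher and 7.84% lower, and the median log2 difference over all considered genes was -0.02. Of the 517, 418 had their highest level of all 8 libraries in the late tumour, and 193 stood under 1 CPM in RasV12. Of the 187, 86 had their lowest level of the 8 in the late tumour, 64 had their highest in RasV12, and 45 stood under 1 CPM in the late tumour. The calling rule itself favours such extremes, and the same shares over all considered genes were not computed. The genes called higher included secreted signals (Ilp8, upd2, bnl), matrix genes (Mmp1, Tig), glycolytic and glutathione genes (Ldh, GstD5), genes of neurons and neural progenitors, and a set of mucin and peritrophin genes that were nearly silent elsewhere. Those called lower included ecdysone-response genes, photoreceptor factors, the antennal gene aristaless (al), and genes of salivary gland and fat body.

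**Figure D1:**
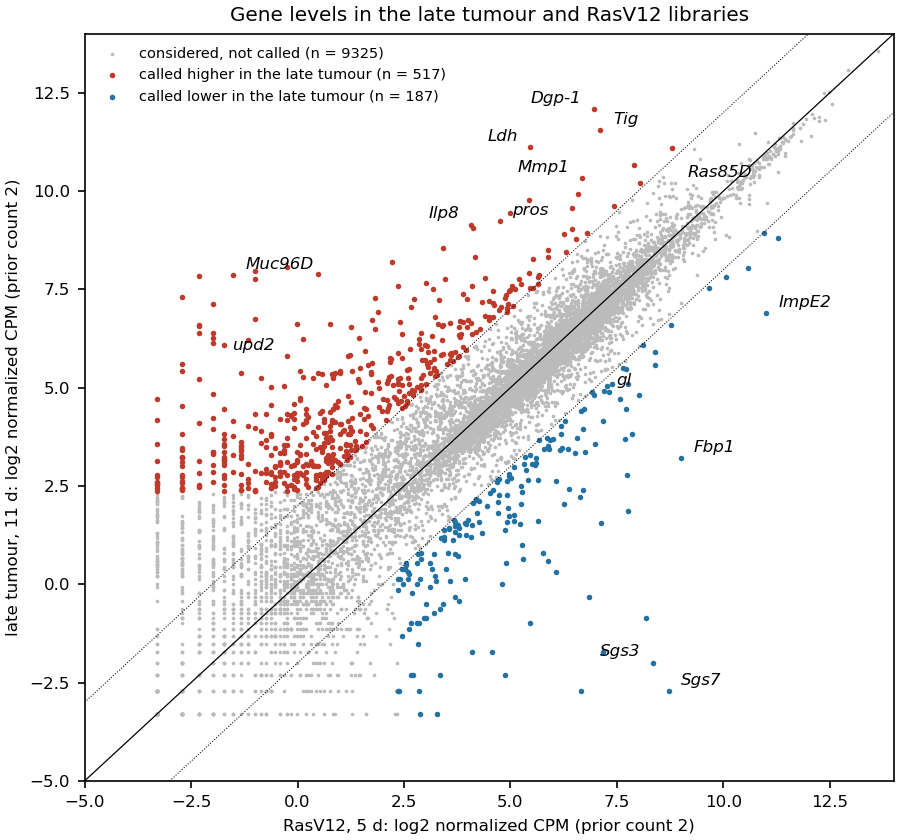
Each point is 1 of the 10029 considered genes, placed by its log2 normalized CPM (prior count 2) in RasV12 on the horizontal axis and in the late tumour on the vertical axis. The solid line marks equal levels and the dotted lines 4-fold. Red points are the 517 genes called higher and blue points the 187 called lower, and the red points reach much farther from the line at low RasV12 levels.

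The genes altered by the genotype were examined first. Ras85D, which encodes Ras and whose counts include the transgene, stood at 1181 CPM in the late tumour and 464 in RasV12. It was 2.54-fold higher (95% interval 2.48 to 2.61), and reads of the transgene and of the resident gene cannot be told apart. The remaining libraries with UAS-Ras[V12] had 655 CPM (early tumour) and 426 (RasV12 scrib BskDN), and those without it 252 to 284. All 4 libraries whose labels carry the transgene were therefore above all 4 that lack it. The level of scrib was 363 CPM in the late tumour and 421 in RasV12, the lowest of the 8 libraries, but the 3 others with scrib loss in eye-antennal discs had 420 to 510, so scrib counts did not mark the scrib[2] allele. Transcripts of bsk, the JNK gene, were at 96.0 CPM in the late tumour and 109 in RasV12, against 749 to 1891 in the 3 libraries with the BskDN transgene, which was absent from both genotypes compared here. The body colour gene yellow (y), a copy of which sits in the driver cassette, was 7.12-fold higher in the late tumour (73.9 against 10.4 CPM), and ebony (e) was at 12.1 against 0.298 CPM. The e level was higher still in scrib BskDN, at 35.4 CPM, and in BskDN, at 18.5.

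Markers of the tissue itself were present in both libraries. The eye selector genes ey and toy stood at 93.0 and 172 CPM in the late tumour and at 72.1 and 238 in RasV12. The eye gene Optix was at 48.1 and 38.7 CPM. All 3 were within 2-fold between the 2 libraries, and their levels in the scrib wing discs were 27.2, 94.8 and 27.5 CPM. The list of 13 retinal determination genes as a whole stood lower, with a median of -0.86. Of its members 5 were 2-fold lower and 0 higher, and ey was the most upward.

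Several genes of secreted signals were called higher. Ilp8, a relaxin-like peptide of growing or damaged discs that delays the onset of metamorphosis, had 566 CPM in the late tumour and 16.8 in RasV12. Its level was 364 CPM in the early tumour, 110 in scrib wing discs, 10.6 in RasV12 scrib BskDN, 2.09 in control, 3.36 in scrib BskDN and 0.795 in BskDN. The 3 libraries with scrib loss and no BskDN were thus far above the rest, with RasV12 next. Between the late tumour and RasV12 the fold was 33.6 (30.2 to 37.6). Ilp8 is encoded on chromosome 3L at 17029812 to 17032080 in the BDGP6 annotation.

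The Unpaired cytokines, which bind the receptor Domeless and activate JAK/STAT signalling, showed the same division. Their genes upd2, upd3 and upd1 lie in a single stretch of the X chromosome, between 18240654 and 18309291. upd2 had 55.3 CPM in the late tumour, 59.8 in the early tumour and 45.3 in scrib wing discs, against 0.745 in RasV12 and 0.583 to 2.37 in the other 4. upd3 was at 55.6, 43.4 and 25.1 CPM in the same 3 libraries, against 2.19 in RasV12 and 0.477 to 2.41 in the others. upd1 was at 62.7, 72.7 and 51.5 CPM, against 6.16 in RasV12 and 3.27 to 7.85 in the others. For each of the 3 genes, the scrib libraries without BskDN stood above the other 5. The share of all considered genes with such a split was not computed. The folds of the late tumour over RasV12 were 74.3 (44.8 to 133) for upd2, 25.5 (18.8 to 35.2) for upd3 and 10.2 (8.45 to 12.3) for upd1. Of the 11 JAK/STAT genes considered, 5 were called higher and none lower. The feedback inhibitor Socs36E was 4.46-fold higher (350 against 78.3 CPM), whereas the receptor dome, the kinase hop and the transcription factor Stat92E stood at 243, 87.0 and 249 CPM against 179, 91.0 and 249.

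Ligands of the PDGF and VEGF family, which in flies guide migrating cells and blood cells through the receptor Pvr, were all higher. Pvf1 stood at 75.9 CPM against 7.15 (10.6-fold), Pvf2 at 176 against 23.8 (7.40-fold) and Pvf3 at 43.6 against 9.04 (4.82-fold). Pvr was 3.07-fold higher, at 231 against 75.3 CPM, but RasV12 was the lowest of the 8 libraries for Pvr, and control had 163 CPM. The ligand levels in the late tumour were near those of the early tumour (61.4, 114 and 28.3 CPM) and of the same order as those of scrib wing discs (104, 158 and 72.7 CPM). The FGF branchless (bnl), which attracts growing tracheal branches, behaved otherwise. Its level was 193 CPM in the late tumour, 17.1 in RasV12, 35.9 in the early tumour and 9.13 to 25.8 in the other 5, so that the late tumour stood alone (11.3-fold over RasV12, 10.1 to 12.7). The activin-like ligand dawdle (daw) had 181 CPM in the late tumour, 47.5 in the early tumour, 8.94 in RasV12 and 4.73 to 17.9 in the others. Its fold over RasV12 was 20.2 (17.4 to 23.6).

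JNK pathway and AP-1 genes had a median log2 difference of 0.66 over 19 members, of which 8 passed 2-fold upward and 1 downward. Mmp1, a secreted metalloprotease that cuts basement membrane and a known JNK target in these tumours, stood at 1282 CPM in the late tumour, 1309 in the early tumour and 1118 in scrib wing discs. It had 102 CPM in RasV12 and 68.6 to 166 in the other 4. The fold over RasV12 was 12.6 (12.1 to 13.2). The dual oxidase maturation factor moladietz (mol) was 6.90-fold higher (51.8 against 7.499 CPM) and the secreted protease homologue scarface (scaf) 4.43-fold (488 against 110). puckered (puc), the phosphatase that switches JNK off and its usual reporter, was 3.05-fold higher, at 166 against 54.6 CPM, and filamin (cher) 3.03-fold, at 1189 against 392. The AP-1 subunit Fos (kay) was 3.24-fold higher, at 326 against 101 CPM, and its partner Jun (Jra) 1.34-fold, at 104 against 77.7. The TNF ligand eiger (egr) had 47.7 against 30.2 CPM. Its receptors grindelwald (grnd) and wengen (wgn) had 119 against 123 and 15.2 against 37.5 CPM, so that wgn was the member that stood lower, 2.47-fold.

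Of 18 stress transcription factors, 7 passed 2-fold upward and none downward. Ets21C, an Ets factor, had 204 CPM in the late tumour, 154 in the early tumour, 64.2 in scrib wing discs, 8.04 in RasV12 and 1.83 to 15.01 in the other 4 (25.3-fold over RasV12, 21.7 to 29.8). chinmo, a zinc finger factor that keeps cells in an immature state, was 6.12-fold higher (361 against 59.0 CPM) and was at 421 in the early tumour. Atf3 was at 71.3 against 27.4 CPM, the bZIP factor Xrp1 at 1064 against 445, and its partner Irbp18 at 54.8 against 23.7. foxo and the ATF4 homologue cryptocephal (crc) differed by 1.23-fold and 1.01-fold, at 47.9 against 58.8 and 1682 against 1698 CPM.

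Growth pathways moved less. The Hippo pathway and Yorkie target list had a median of -0.02 over 19 genes, and 3 of them passed 2-fold, all upward. The 3 were four-jointed (fj), 2.57-fold, kibra, 2.57-fold, and the heparan sulphate proteoglycan dally, 2.23-fold. The Yorkie target Diap1, an inhibitor of apoptosis, had 349 CPM against 387, and expanded (ex) 632 against 401. Both libraries carried active Ras, and the median over 16 Ras/MAPK response genes was -0.00. The feedback inhibitors sprouty (sty) and argos (aos) stood at 482 and 165 CPM in the late tumour and at 463 and 143 in RasV12, above 95.7 and 46.1 in control. The exception was roughoid (ru), an intramembrane protease that releases EGF receptor ligands in the eye, which was 20.05-fold lower (16.5 to 24.6), at 5.19 against 104 CPM. It had 13.7 CPM in the early tumour and 29.6 to 87.8 in the other eye-antennal libraries. The EGF-type ligand vein (vn) was 2.41-fold higher, at 52.6 against 21.9 CPM. Among 30 cell cycle and DNA replication genes the median was -0.33, and 1 passed 2-fold, upward. That gene was tribbles (trbl), a brake on entry into mitosis, at 118 against 52.5 CPM. Of 13 cell death genes 5 were 2-fold higher, among them the death activators sickle (skl) at 6.48 against 1.84 CPM, reaper (rpr) at 22.4 against 9.98 and grim at 11.1 against 5.31. hid, another activator, stood at 82.3 against 83.9 CPM.

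**Figure D2:**
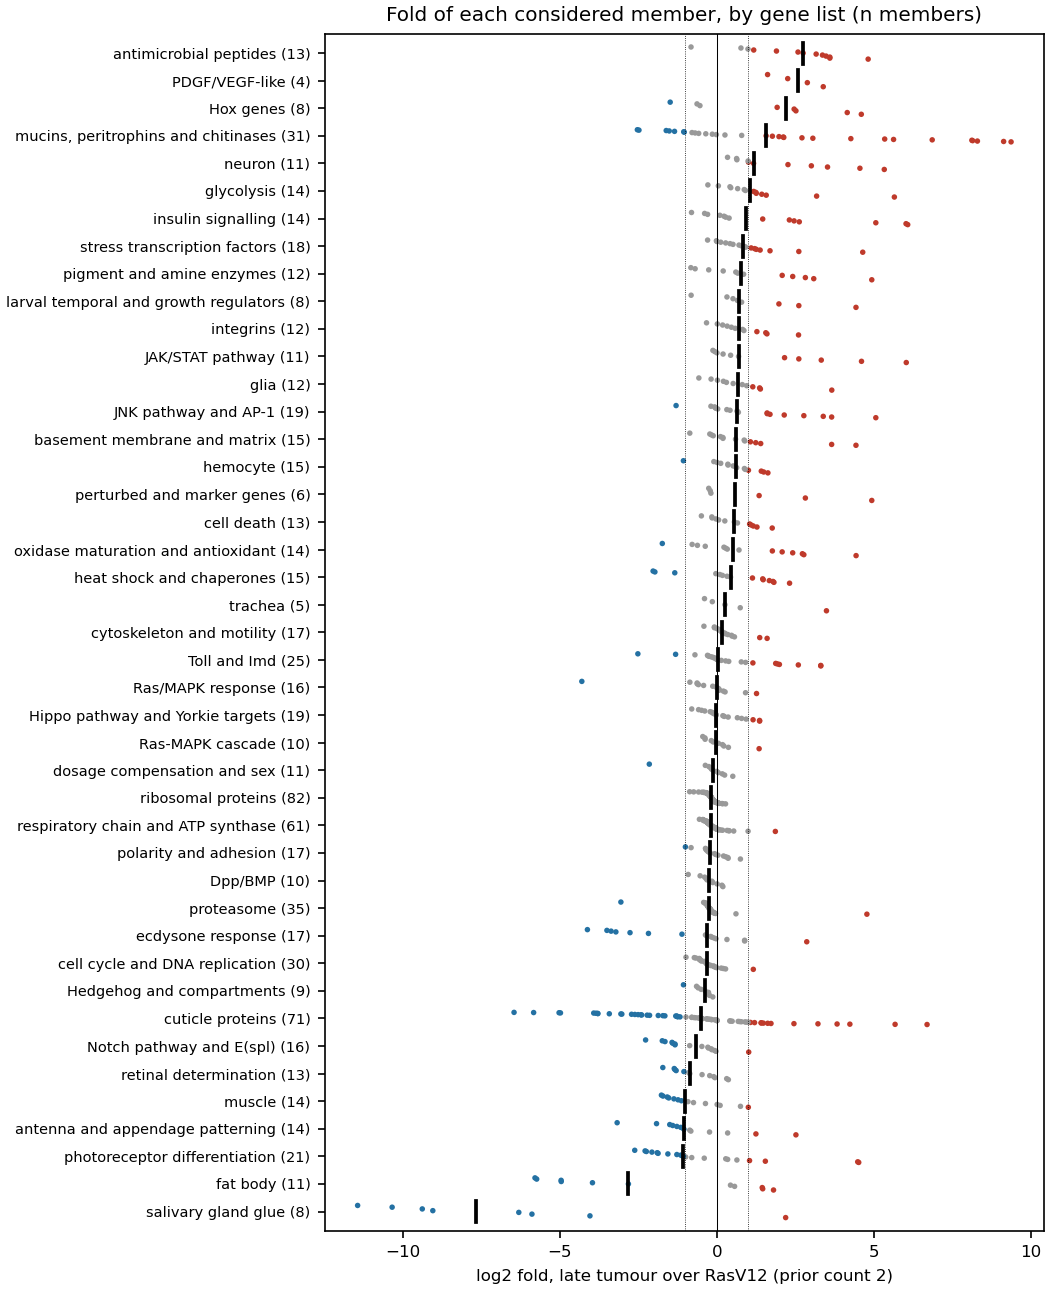
Each point is a considered member of a gene list, placed by its log2 difference between the late tumour and RasV12 (prior count 2), and the black bar is the list's median. Red and blue points are at least 2-fold higher or lower. Antimicrobial peptides (median 2.75) and PDGF/VEGF-like genes (2.57) lie at the top, and fat body (-2.82) and glue genes (-7.67) at the bottom.

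Matrix genes were led by tiggrin (Tig), a secreted ligand of integrins. It had 2977 CPM in the late tumour, 4051 in the early tumour and 1699 in scrib wing discs, against 138 in RasV12 and 70.3 to 240 in the other 4. The late tumour was 21.6-fold above RasV12 (20.8 to 22.4). The collagen IV genes vkg and Col4a1 were 2.36-fold and 2.10-fold higher, at 161 against 68.3 and 228 against 109 CPM. Control had 286 and 404 CPM for these collagens, more than the late tumour, and RasV12 was the lowest of the 8 libraries for both. The laminin genes LanA and LanB1 were 1.08-fold apart in opposite directions. Of 12 integrin and adhesion genes 4 were at least 2-fold higher. They included talin (rhea), which links integrins to actin, at 988 against 327 CPM, and paxillin (Pax) at 286 against 118. The integrin subunit Itgbn was at 5.04 against 0.745 CPM, but control had 5.69, more than the late tumour. The spectraplakin shot, which joins actin to microtubules, was at 1802 against 699 CPM. No member of the 17 polarity and adhesion genes was 2-fold higher, and 1 was lower, Fas3, a septate junction adhesion molecule, at 377 against 755 CPM.

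Lactate dehydrogenase (Ldh), which turns pyruvate into lactate, had 2229 CPM in the late tumour, 411 in the early tumour, 119 in control, 44.2 in RasV12 and 19.6 to 63.0 in the other 4. The late tumour was thus above every other library, and 50.4-fold above RasV12 (47.2 to 54.0). The trehalose transporter Tret1-1 was 9.13-fold higher, at 94.3 against 10.3 CPM, with 62.2 in scrib BskDN. In the glycolysis list 7 of 14 genes passed 2-fold, all upward. Phosphofructokinase (Pfk) stood at 458 against 154 CPM and aldolase (Ald1) at 1171 against 434, both above all 7 other libraries, of which the highest were RasV12 for Pfk and control, with 693 CPM, for Ald1. Phosphoglycerate kinase (Pgk), at 288 against 351 CPM, was not among those higher. The 61 respiratory chain and ATP synthase genes had a median of -0.18, with 1 member past 2-fold, upward, and the 82 ribosomal protein genes a median of -0.17, with none past 2-fold.

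Genes of the insulin pathway that are known to act when nutrients or growth signals are limited were also higher. ImpL2, a secreted protein that binds insulin-like peptides, had 2186 CPM in the late tumour, 1055 in the early tumour, 736 in scrib wing discs, 441 in RasV12 and 475 to 569 in the other 4 (4.96-fold, 4.85 to 5.07). Thor, the 4E-BP brake on translation, was 5.51-fold higher, at 323 against 58.5 CPM, and 116 was the highest level elsewhere. The secreted insulin receptor decoy Sdr stood lower, at 27.3 against 47.9 CPM. Ilp2 and Ilp3, insulin-like peptides made by neurosecretory cells of the brain, had 6.53 and 6.78 CPM in the late tumour and no count in RasV12, which makes them at least 43.9-fold and 45.5-fold higher, computed against 3 counts in that library. Both were also present in scrib BskDN (14.5 and 4.17 CPM), RasV12 scrib BskDN (6.25 and 3.00) and scrib wing discs (5.56 and 6.59).

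Detoxification and redox genes formed a further group. The NADPH oxidase Nox, which makes superoxide, was at 185 CPM in the late tumour, 49.6 in the early tumour, 43.8 in RasV12 and 19.98 to 41.8 in the others (4.24-fold, 3.94 to 4.56). Glutathione S-transferases, which couple glutathione to reactive compounds, were 2-fold higher in 15 and lower in 5 of 31 members, a list added after the values were seen. GstD5 had 23.1 CPM in the late tumour and 0 to 0.159 in the other 7. GstE6 was 32.2-fold higher (25.2 to 41.8), at 106 against 3.28 CPM, and GstD3 25.4-fold (18.8 to 35.0), at 56.7 against 2.23. GstD1, a common marker of oxidative stress, was at 2163 against 635 CPM, with 1629 in scrib wing discs. GstS1 stood 4.42-fold lower, at 185 against 815 CPM, and extracellular superoxide dismutase Sod3 3.33-fold lower, at 97.5 against 325. The malic enzyme Men, a source of NADPH, was 6.62-fold higher, at 307 against 46.3 CPM. Several glutathione S-transferase genes lie in tandem arrays of similar sequence, so that counts of single copies are uncertain.

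Ecdysone, the steroid hormone whose pulses drive moulting and metamorphosis, acts through the receptor pair EcR and usp on a cascade of target genes. Of 17 ecdysone-response genes 7 passed 2-fold downward and 1 upward, and 6 of the 7 and the 1 were called. ImpE2, an ecdysone-inducible gene of evaginating discs, had 118 CPM in the late tumour and 11.7 in the early tumour, against 2060 in RasV12. The level was 482 CPM in scrib wing discs and 1926 to 5872 in the other 4. Both tumour libraries were thus far below the rest, and the late tumour was 17.4-fold below RasV12 (16.7 to 18.2). ImpE1, ImpE3 and ImpL1 were 4.53-fold, 10.4-fold and 12.4-fold lower.

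The ecdysone-induced nuclear receptors Hr3 and Eip78C had 3.24 and 6.19 CPM in the late tumour, 0.619 and 1.14 in the early tumour, and 30.9 and 42.6 in RasV12. The repressor Blimp-1, which follows the ecdysone pulse, was 13.4-fold lower (10.2 to 17.9), at 2.79 against 37.3 CPM. By contrast EcR and usp stood at 171 and 68.2 CPM against 175 and 72.6. Cyp18a1, a cytochrome P450 that degrades ecdysone, was the gene called higher, 7.35-fold, at 60.3 against 8.19 CPM, with 39.8 in the early tumour and 57.8 in scrib wing discs. The heat shock list had a median of 0.44 over 15 genes, 7 past 2-fold upward and 3 downward. The 3 downward were small heat shock genes, a class known to respond to ecdysone, with Hsp27 at 485 against 1980 CPM (4.08-fold), Hsp23 at 828 against 2096 and Hsp67Ba at 66.3 against 261. The inducible genes Hsp70Bb and Hsp68 were higher, at 1127 against 354 and 307 against 111 CPM, and Hsp70 copies share near-identical sequence. Steroid-making enzymes of the prothoracic gland, a tissue dissected near the discs, were also lower, with spookier (spok) at 13.02 against 94.7 CPM and shadow (sad) at 23.2 against 65.7. That 4-gene list, added after the values were seen, summed to 41.8 CPM in the late tumour, 179 in RasV12 and 23.7 to 683 in the other 6, and its part in the ecdysone genes was not tested.

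Eye development in the disc runs from retinal determination genes to a proneural wave led by atonal and then to photoreceptor differentiation. Of 13 retinal determination genes 5 passed 2-fold, all downward. Among them eyes absent (eya) stood at 83.9 against 212 CPM, sine oculis (so) at 34.1 against 83.9 and distal antenna (dan) at 19.5 against 64.3. Of 21 photoreceptor genes 11 were lower and 4 higher. The proneural gene atonal (ato) was 6.25-fold lower (4.95 to 7.96), at 4.19 against 26.2 CPM. glass (gl), a zinc finger factor required for photoreceptor identity, had 29.8 CPM in the late tumour, 55.2 in the early tumour, 146 in RasV12 and 106 to 208 in the other eye-antennal libraries. Both tumour libraries were therefore below the other 5, and the wing discs had 7.80 CPM. The receptor tyrosine kinase sevenless (sev) was 3.66-fold lower, and rough (ro) and senseless (sens), both with 10.8 CPM in RasV12, 4.91-fold and 4.32-fold lower. The 4 photoreceptor list members that stood higher included prospero (pros) and found in neurons (fne), which neurons of the brain also use.

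Antennal and appendage genes were lower in 8 and higher in 2 of 14 members. aristaless (al), a homeobox gene of the distal antenna, was 9.11-fold lower (7.87 to 10.6), at 10.1 against 91.8 CPM, but RasV12 had the highest al level of the 8 libraries and control had 25.4. spineless (ss) stood at 6.19 against 23.7 CPM, Lim1 at 41.1 against 116 and Distal-less (Dll) at 31.2 against 82.8. Of 16 Notch pathway genes 7 were lower and 1 higher. The Notch target E(spl)mdelta-HLH was 4.85-fold lower (12.5 against 60.7 CPM) and E(spl)m7-HLH 3.35-fold (14.8 against 49.6), whereas the ligand Serrate (Ser) was 2.02-fold higher (252 against 125) and Notch itself (N) was at 644 against 774.

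**Figure D3:**
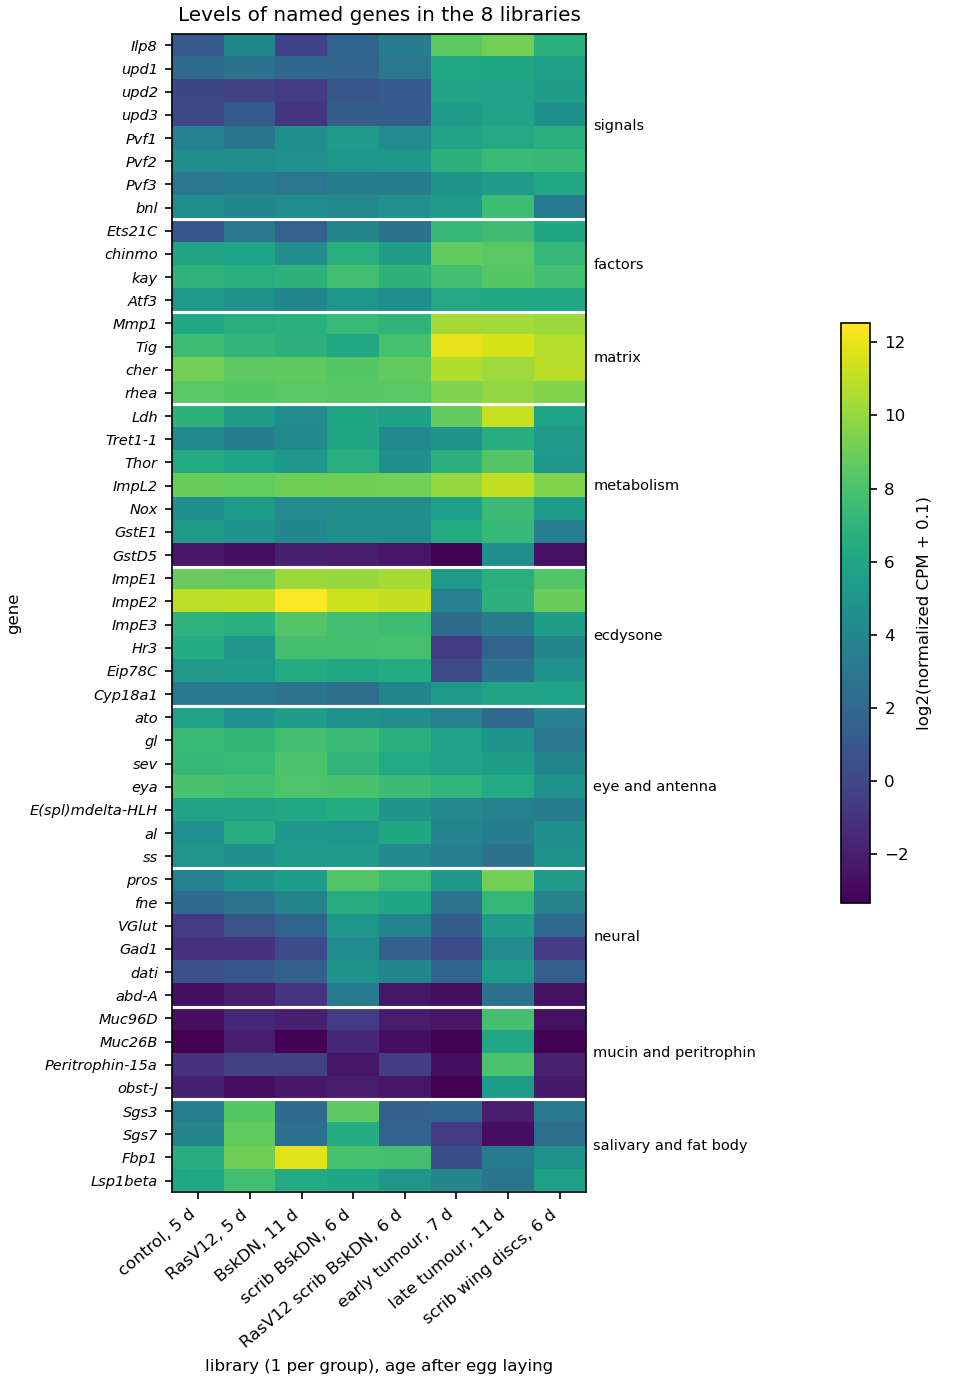
Colour gives log2(normalized CPM + 0.1) for named genes (rows, grouped by role) in each of the 8 libraries (columns, with age after egg laying). Signals, factors and matrix genes are bright in the early tumour, the late tumour and the scrib wing discs, bnl and Ldh are brightest in the late tumour, and the mucin and peritrophin genes are dark in the other 7 libraries.

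Genes of the nervous system were higher, and not in the late tumour alone. pros, a homeodomain factor of differentiating neurons and neural stem cell progeny, had 601 CPM in the late tumour, 304 in scrib BskDN, 163 when that genotype also had RasV12, 26.7 in RasV12 and 11.9 to 45.1 in the other 4. Its fold over RasV12 was 22.5 (20.6 to 24.6). The same 3 libraries led for fne, an RNA-binding protein of neurons, at 152, 92.7 and 62.3 CPM against 6.56 in RasV12. Among 11 neuronal markers 7 passed 2-fold, all upward, and 5 were called. The vesicular glutamate transporter VGlut was at 40.9 against 1.64 CPM, the GABA-making enzyme Gad1 at 20.003 against 0.397 and the acetylcholine-making enzyme ChAT at 7.93 against 0.596. These 3 stood at 31.0, 20.7 and 6.68 CPM in scrib BskDN. General neuronal genes differed less, with elav at 238 against 153 CPM and the synaptic gene brp at 88.5 against 43.9.

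Neural progenitor genes, a list added after the values were seen, were higher in 5 of 7 members, including worniu (wor) at 14.4 against 1.44 CPM and miranda (mira) at 38.5 against 13.2. The long noncoding RNA lncRNA:cherub, known from fly neural stem cells, was 31.1-fold higher (27.9 to 34.7), at 537 against 17.3 CPM, with 408 in scrib BskDN. Of 8 Hox genes, which mark body regions, 5 passed 2-fold upward and 1 downward, while the summed level was 72.6 CPM in the late tumour and 83.0 in RasV12. abd-A was at 5.99 against 0.149 CPM, Abd-B at 2.59 against 0.0497 and Ubx at 4.29 against 0.695. In scrib BskDN these genes of the trunk and abdomen stood at 8.81, 6.11 and 4.97 CPM. Antp, of the thorax, was at 7.88 against 1.29 CPM, but control had 11.98. The head Hox gene lab passed 2-fold downward, at 3.89 against 11.1 CPM, and Dfd stood within 2-fold, at 35.0 against 50.8. Another member that passed 2-fold upward is not named here, so no contrast between head and trunk genes is drawn. The glial transporter Eaat1 was 13.01-fold higher, at 42.0 against 3.23 CPM, but the glial master gene repo had 45.04 against 44.4.

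Summed over its 11 genes, the neuron list gave 927 CPM in the late tumour, 504 in RasV12, 856 in scrib BskDN and 209 to 522 in the other 5. The progenitor list gave 1727, 683 and 1275 CPM, with 515 to 840 in the other 5. No member of either list was at 0 in the late tumour. The 12-gene glia list gave 1023 CPM against 778, with 678 to 893 in the other 6. How far brain or nerve tissue carried along with the discs contributed to these values was not tested.

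Mucin and peritrophin genes, which code for secreted and chitin-binding proteins, were 5 of the 15 genes with the largest folds in the higher direction. Of the 517 genes called higher, 40 (7.74%) stood under 1 CPM in each of the other 7 libraries. Muc96D, a mucin gene on chromosome 3R at 25397788 to 25400645, had 232 CPM in the late tumour, 0.248 in RasV12 and 0.0537 to 0.568 in the other 6. Peritrophin-15a and Peritrophin-15b, named after the chitin-binding proteins of the gut lining, had 266 and 141 CPM in the late tumour and at most 0.745 elsewhere. Muc26B was at 69.7 CPM against 0.149, and obst-J, of the obstructor family of chitin-binding proteins, at 42.8 against 0.0497. CG7017 and CG6933 reached 229 and 159 CPM, with 2 counts and 1 count in RasV12, so that their folds of 2303 (637 to 19024) and 3192 (573 to 126125) are known only within wide limits. Of 31 mucin, peritrophin and chitinase genes 16 passed 2-fold upward and 7 downward. Those lower included obst-A, at 59.7 against 333 CPM, and the chitinase Cht10, at 264 against 1527, both expressed in all 8 libraries.

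Some of these genes lay close together. Of the 40, all of which had a position in the BDGP6 annotation, 17 (42.5%) had another of the 40 within 20 kb, while 1.5% of the remaining 9531 positioned genes lay that near to one of them. All 40 were considered only because of their level in the late tumour, so these shares describe positions and are no test. CG5883, CG7252, CG17826 and obst-G stood side by side on chromosome 3L at 11943640 to 11953317, and no other considered gene lay in that span. CG7298, CG7017 and CG6933 made a second run on 3L, at 20202070 to 20220420, and Peritrophin-15b and Peritrophin-15a a pair on 2L at 8394446 to 8396096. Neighbouring was less common among all genes called higher, of which 127 of 486 (26.1%) had another within 20 kb, against 16.4% of the other genes. For genes called lower the shares were 37 of 180 (20.6%) and 6.87%. Neighbouring genes of a family can share sequence, and its part in these counts was not tested.

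Digestive enzyme genes of the midgut, a list added after the values were seen, were set beside these genes. Of 38 genes 8 were considered and 14 had no count in the late tumour. The summed level was 61.4 CPM in the late tumour, 19.6 in RasV12 and 10.6 to 39.7 in the other 6. Mal-A5, a maltase, accounted for 30.4 CPM of it and the protease Jon65Aiv for 19.95. GATAe, the GATA factor of the midgut, was at 0.299 CPM against 0.397, or 6 and 8 counts. In the list of gut transcription factors it comes from, also added after the values were seen, 2 of 3 considered members passed 2-fold upward (srp and fkh, the latter called) and lab downward, and the 6 genes summed to 57.9 CPM against 33.7. The part of gut tissue in the mucin and peritrophin genes was not tested.

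Cuticle protein genes showed both directions, with 13 higher and 27 lower of 71 considered. Cpr47Eb was at 41.3 CPM in the late tumour and 27.8 in the early tumour, against 0.298 in RasV12 and 0.142 to 4.89 in the other 5. Cpr65Ec went the other way, at 0.399 against 43.9 CPM, and so did TwdlT, at 0.200 against 17.1. RasV12 had the highest level of the 8 libraries for both.

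The largest folds in the lower direction were in genes of other larval tissues. Glue proteins are made by the salivary gland before metamorphosis, and 7 of 8 members of that list were called lower. Sgs7 had 421 CPM in RasV12 and 0.0499 in the late tumour, which is 1 count, Sgs3 326 against 0.150 and Sgs5 291 against 0.449. Sgs3 stood at 384 CPM in scrib BskDN and at 2.91 to 10.6 in the other 5. The summed level was 1611 CPM in RasV12, 1091 in scrib BskDN and 12.3 to 53.2 in the other 6, so that RasV12 was the unusual side. No glue gene was at 0 in the late tumour, and the list's member fkh, a forkhead factor also used elsewhere, was higher there, at 15.6 against 3.33 CPM.

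Of 11 fat body genes 6 were called lower, while 3 passed 2-fold upward and 0 were called higher. The 6 were Fbp1, Fbp2, Lsp1alpha, Lsp1beta, Lsp1gamma and Lsp2, and no other member of the list was 2-fold lower. Fbp1, the receptor by which the fat body takes up storage proteins, was at 513 CPM in RasV12 and 9.18 in the late tumour. It had 3641 CPM in BskDN, 1.29 in the early tumour and 27.0 to 239 in the other 4. Lsp1beta and Lsp2, storage protein genes, were 31.5-fold and 7.05-fold lower, at 6.78 against 213 and 47.6 against 336 CPM. The lipoprotein gene apolpp was higher, at 257 against 73.4 CPM. The summed list was at 646 CPM in the late tumour, 1557 in RasV12 and 312 to 5824 in the other 6. Some of these genes are themselves under ecdysone control, and the part of fat body carried along was not tested. Muscle genes were 2-fold lower in 7 of 14, with the summed level at 411 CPM against 540 and 6179 in control.

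Of 15 hemocyte markers 4 passed 2-fold upward and 1 downward, and none was called. Hemolectin (Hml) stood at 316 against 118 CPM and the scavenger receptor Sr-CI at 45.3 against 14.6. RasV12 was the lowest library for the summed list, at 889 CPM, against 1341 in the late tumour and 1298 to 2643 in the other 6. PPO2, the crystal cell prophenoloxidase, was at 122 against 112 CPM and at 847 in control.

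Antimicrobial peptides had the highest list median, 2.75, with 10 of 13 members past 2-fold, all upward, but their levels were low. Cecropin C (CecC) was at 8.38 CPM against 0.199, Defensin (Def) at 8.23 against 0.646 and Diptericin B (DptB) at 5.04 against 0.397. The summed list was 67.1 CPM in the late tumour and 17.5 in RasV12, yet 84.1 in control and 125 in scrib wing discs, so the late tumour was not the highest. In the early tumour the sum was 4.33 CPM. The Toll and Imd list had a median of 0.03 over 25 genes, 7 past 2-fold upward and 2 downward. The Toll pathway recognition protein PGRP-SA was 10.1-fold higher (8.27 to 12.4), at 54.1 against 5.36 CPM, and 51.3 in the early tumour. The Toll ligand spz was at 41.0 against 10.2 CPM. The 2 downward were SPE, the protease that activates spz, at 0.698 against 4.47 CPM, and the Imd pathway receptor PGRP-LC, at 9.78 against 24.4.

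Enzymes of pigment and amine synthesis were called higher in 5 of 12 cases. The tyrosine hydroxylase pale (ple) was at 63.6 against 7.40 CPM, with 31.4 in control and 99.3 in RasV12 scrib BskDN, and yellow-b at 113 against 21.0, with 172 in the early tumour. Of the 11 dosage compensation and sex genes, doublesex (dsx) was lower, 4.46-fold, at 12.97 against 57.9 CPM. The male-specific RNA lncRNA:roX1 stood at 680 CPM against 478 and lncRNA:roX2 at 47.1 against 39.6. The 3 BskDN libraries had 60.1 to 120 CPM of lncRNA:roX1, below the 5 others. Whether the shares of male larvae differed in those libraries, which would bear on the comparisons that use them, was not tested.

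**Figure D4:**
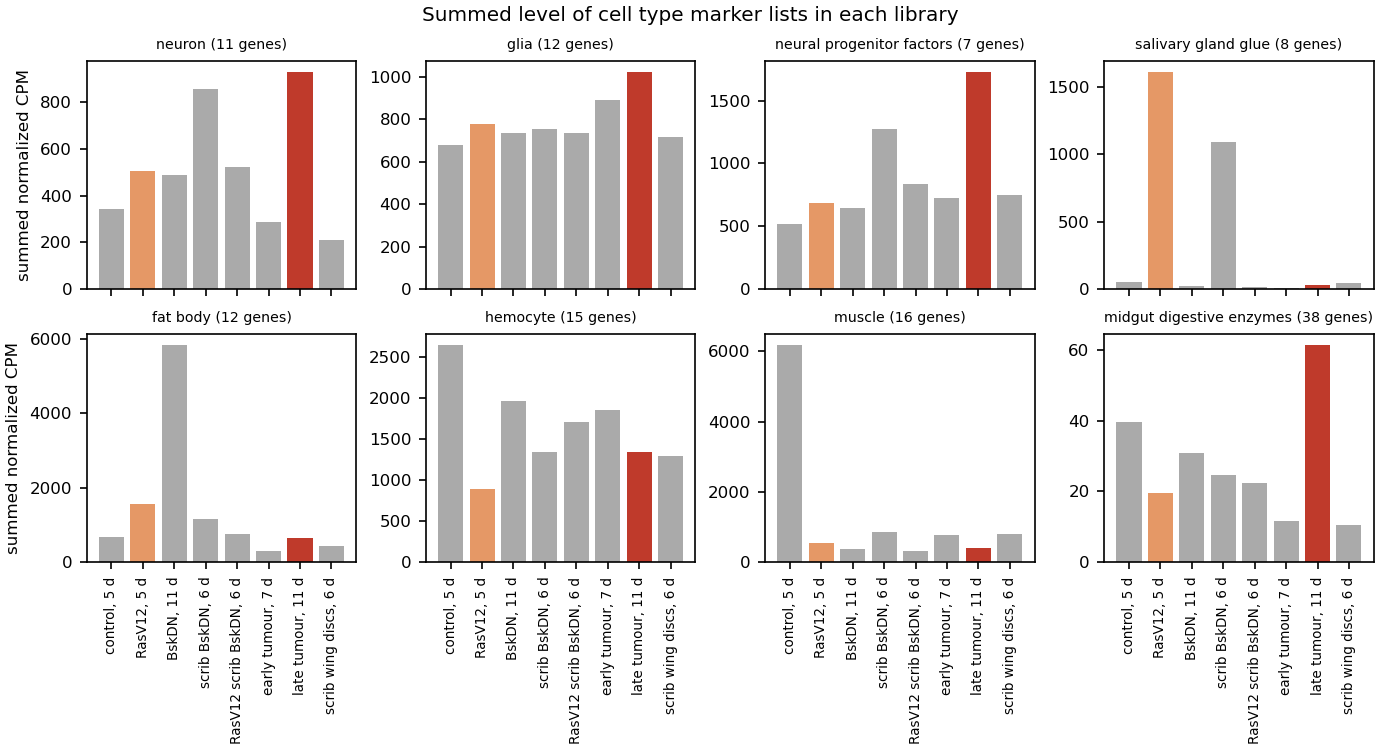
Bars give the summed normalized CPM of each marker list in each of the 8 libraries, with RasV12 in orange and the late tumour in red. Neuron and progenitor genes are highest in the late tumour and next in scrib BskDN, and glue genes are high in RasV12 and scrib BskDN.

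A pair of other comparisons shares no library with this one and shows how far its folds recurred. Over the 10029 genes the log2 difference between the early tumour (7 days) and control (5 days) had a Pearson correlation of 0.33 and a Spearman correlation of 0.40 with that between the late tumour and RasV12. Of 101 genes called higher in the early tumour over control, 76 (75.2%) were also called higher here, which is 14.7% of the 517. For lower calls, 82 genes were shared, 43.9% of the 187 and 18.8% of the 437 of the early tumour. No gene was called lower here and higher there, and 18 were called the other way round. The background shares of the early tumour comparison were 1.01% higher and 4.36% lower. Ilp8, upd2, Mmp1 and Ets21C were among the shared higher genes and ImpE2 and Fbp1 among the shared lower ones.

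The second was BskDN (11 days) over control (5 days), a comparison with the same ages and neither Ras nor scrib changed. Its correlations with the late tumour over RasV12 were -0.03 (Pearson) and -0.05 (Spearman). It called 69 genes higher, 0.688%, and 329 lower, 3.28%, of which 8 and 16 were called the same way here, 1.55% of the 517 and 8.56% of the 187. A further 43 genes were called higher here and lower there, 13.1% of the 329, while the 8 shared higher calls were 11.6% of the 69. The 6 called lower here and higher there were Fbp1, Fbp2, Lsp2, CG2233, Obp99b and CG16926. Genes are not independent replicates, BskDN itself alters signalling, and control had more muscle and cuticle RNA than any other library (6179 and 5409 CPM summed over the lists, against at most 873 and 891). Age by itself was therefore not isolated.

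**Figure D5:**
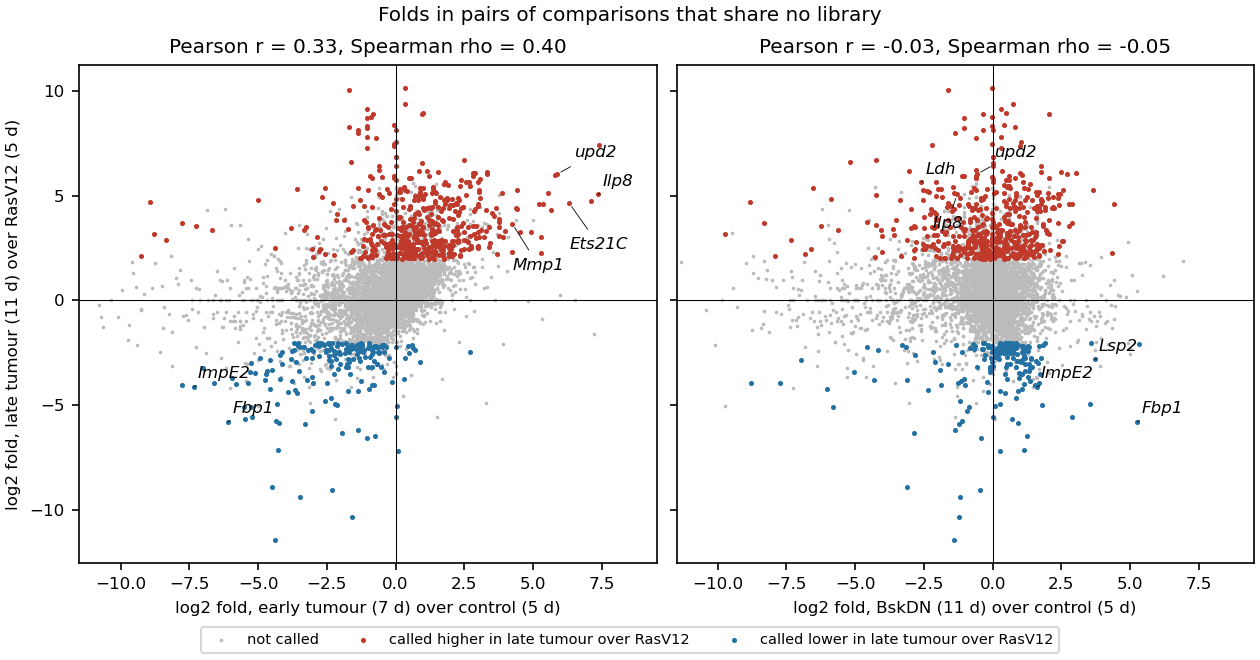
The vertical axis of both panels is the log2 difference of the late tumour over RasV12, and the horizontal axis that of the early tumour over control (left) or BskDN over control (right), for the 10029 considered genes. Genes called higher or lower on the vertical axis are red and blue. On the left the blue points lie mostly at negative values (median -2.005), and on the right around 0 (median 0.43).

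A further pair of eye-antennal comparisons over control shares no library with this one either, and was added after the values were seen. scrib BskDN over control called 312 genes higher, 3.11%, and 316 lower, 3.15%. It shared 130 higher calls, 25.1% of the 517 and 41.7% of the 312, and 11 lower ones, 5.88% of those called lower here. Opposite calls were 27 higher here and lower there, and 15 lower here and higher there. RasV12 scrib BskDN over control called 111 higher, 1.11%, and 342 lower, 3.41%, and shared 57 and 20. Its opposite calls were 34 higher here and lower there, and 7 the other way round. The Pearson correlations with the late tumour over RasV12 were 0.24 for scrib BskDN and 0.17 for RasV12 scrib BskDN.

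Set against the other eye-antennal libraries by level, 123 of the 517 genes called higher were within 2-fold of the late tumour, or above it, in the early tumour. The number was 176 in scrib BskDN, where JNK was blocked, 47 in control, 32 for RasV12 scrib BskDN and 21 in BskDN. Of the 187 called lower, 133 were within 2-fold of the late tumour, or below it, in the early tumour, and 24 to 33 in each of the other 4. By this measure most genes called lower were low in the early tumour too. The shares of all considered genes that meet these criteria were not computed. The genes called higher that scrib BskDN had within 2-fold included pros, VGlut, Gad1, abd-A and Ilp2.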

How the data were processed

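Total RNA of dissected discs, pooled from 50 to 60 larvae per genotype and extracted with a spin-column kit per the labels, gave 1 library for each of 8 groups. The authors deposited raw counts per gene, in a column for each library. TopHat2 (alignment) and HTSeq (counting) are named per the submitters' processing notes. Versions, build, annotation and strand setting were not given in the sources used here. Reads of overlapping or antisense genes cannot be told apart, and counts of near-identical copies are uncertain. Tally rows were left out.

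Names and positions came from a BDGP6 annotation (Ensembl) joined by gene identifier. Of 15348 identifiers 14639 (95.4%) matched, and the 709 others held 9.23% of the counts of RasV12 and 9.15% of the late tumour. Of 590 list entries 532 matched. Counts were scaled by the trimmed mean of M values over 8 libraries (edgeR 4.0.16, R 4.3.3), and log2 CPM used a prior count of 2. Folds of single genes are ratios of normalized CPM without it, with exact conditional binomial (Clopper-Pearson) 95% intervals (scipy 1.17.1). Levels have exact Poisson intervals. Intervals and floors cover counting error only, because reads that carry no molecular identifier need not be separate molecules. The steps were tested on simulated data.

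The comparison, the 44 gene lists and the 6 added lists were chosen with earlier results of these data known. Genes named were the perturbed genes, in each direction the 15 called genes of at least 20 CPM with the largest folds, called list members (at most 6 a list) and at most 4 further examples a list. Outside this rule, and chosen after their values were seen, were Stat92E, toy, egr, grnd, Jra, Xrp1, Irbp18, dally, Diap1, ex, sty, aos, Col4a1, LanA, LanB1, Pax, daw, EcR, usp, Blimp-1, spok, sad, Hsp70Bb, Hsp68, eya, so, Dll, N, elav, wor, mira, repo, Dfd, rpr, grim, hid, Hml, PPO2, srp, GATAe, Jon65Aiv, Mal-A5, GstD3, GstD5, GstE6, GstS1 and lncRNA:cherub. Alternatives were other scalings (DESeq2 1.42.0 size factors, total counts), filters, thresholds and prior counts.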

Additional observations from a re-analysis of the deposited data

How the results depend on the processing

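The call counts moved past 1.5-fold under 1 alternative. With a minimum of 20 CPM in the higher library, 253 genes were called higher and 106 lower. Other scalings, filters and a prior count of 0.5 gave 517 to 533 higher and 180 to 189 lower, and higher genes made up 70.5 to 74.8% of calls throughout. Counts chosen after the values were seen were 507 higher and 165 lower without the tissue marker lists, 477 higher without genes under 1 CPM in the other 7 libraries, and 387 higher without genes also called higher in scrib BskDN over control. The median of the Hox genes turned from 2.19 to -0.54 when 5 CPM was required in 1 of the 2 libraries, since low Hox genes then left the list. Of the other list medians under alternatives, 243 shifted by less than 0.1 and 20 by more, 10 of them under that same filter, with shifts of up to 1.32. Correlations with the other comparisons stayed at 0.32 to 0.36 (early tumour) and -0.04 to -0.03 (BskDN) over alternatives. Of the single-gene folds under alternatives, 795 stayed within their interval and 6 moved. No paired analysis was possible because each group had 1 library and the labels carry no replicate numbers. For the same reason no library could be left out.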

Other observations

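Further genes with large differences belonged to none of the lists, and were chosen after their values were seen. Dgp-1, which encodes a GTP-binding protein, had 4354 CPM in the late tumour, 1077 in the early tumour, 124 in RasV12 and 72.9 to 120 in the other 5, a 35.0-fold difference over RasV12 (33.7 to 36.5). Arc1, a capsid-forming gene of retrotransposon origin, stood at 756 against 86.8 CPM, with 345 in the early tumour. The amino acid transporter gene path was at 1634 against 239 CPM, with 1253 in the early tumour, and spz3, of the spatzle family of ligands, at 319 against 17.7, with 146.

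Another set was high in all 3 libraries with scrib loss and no BskDN. The tyrosine decarboxylase genes Tdc1 and Tdc2 had 133 and 38.3 CPM in the late tumour, 157 and 24.9 in the early tumour and 168 and 21.5 in scrib wing discs, against 6.26 and 0.993 in RasV12. vir-1, known as a virus-induced gene, had 973, 768 and 797 CPM in those 3 libraries and 87.8 to 106 in the other 5. The uncharacterised gene CG13215 was at 238, 245 and 129 CPM, against 1.29 in RasV12 and 0.212 to 8.04 in the other 4.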
